A study of Saccharomyces cerevisiae with 6 samples.

Results

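The serine tRNAs of budding yeast (Saccharomyces cerevisiae) were followed through tRNA-HySeq libraries of paf1∆, rtf1∆ and wild type cells. The set comprises 6 of the 70 tRNA sequences counted. It holds every sequence named for serine, TRNA-SER-AGA-1-1, TRNA-SER-AGA-2-1, TRNA-SER-CGA-1-1, TRNA-SER-TGA-1-1 and TRNA-SER-GCT-1-1. It also holds TRNA-UND-NNN-1-1, a sequence with no assigned anticodon that was included because its counts are like those of TRNA-SER-GCT-1-1. The likeness of that pair is therefore a condition of the choice and not a result.

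tRNA-HySeq measures the tRNA pool from fragments of gel-purified tRNA that are made by mild alkaline hydrolysis, and fragments of 19 to 35 nucleotides were sequenced. The paf1∆ cells (strain DAS516) and rtf1∆ cells (strain DAS549) carry a HIS3 replacement of PAF1 or RTF1 in a strain background that the study lists for both, and the wild type is strain DAS217, whose background is not given in the sources used here. All cells were grown to log phase (A600 of 0.6 to 0.8) at 30 °C in YEP medium with 2% dextrose, and each genotype has 2 libraries. The labels do not say whether the 2 libraries of a genotype came from separate cultures, so the p-values measure only the spread between these libraries.

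Transfer RNAs carry amino acids to the ribosome and pair with the codon through their anticodon. They are made by RNA polymerase III from short genes, many of them present in several copies. Serine is encoded by the UCN and the AGY codons, which cannot be reached from each other by changing a single base, and 1 seryl-tRNA synthetase charges the tRNAs for both. The enzyme does not rely on the anticodon but on the long variable arm, a feature that serine tRNAs share with leucine tRNAs. The AGA anticodon, whose first A is converted to inosine, reads UCU and UCC, the TGA anticodon reads UCA, the CGA anticodon reads UCG, and the GCT anticodon reads AGC and AGU. Paf1 and Rtf1 are subunits of the Paf1 complex, which travels with RNA polymerase II and acts in transcription elongation and histone modification.

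The 6 mature sequences show how little separates the members whose counts are compared below. They are given as DNA from RefSeq (build R64), without introns, with the anticodon in capitals. TRNA-UND-NNN-1-1 has no annotated anticodon and therefore no capitals.
TRNA-SER-AGA-1-1: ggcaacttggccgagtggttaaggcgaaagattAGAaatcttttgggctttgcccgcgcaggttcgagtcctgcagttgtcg
TRNA-SER-AGA-2-1: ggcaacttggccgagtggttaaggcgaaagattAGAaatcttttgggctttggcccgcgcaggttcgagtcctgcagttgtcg
TRNA-SER-CGA-1-1: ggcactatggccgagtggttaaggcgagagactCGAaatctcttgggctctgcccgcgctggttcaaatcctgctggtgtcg
TRNA-SER-TGA-1-1: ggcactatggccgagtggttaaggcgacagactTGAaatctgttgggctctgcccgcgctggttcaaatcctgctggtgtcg
TRNA-SER-GCT-1-1: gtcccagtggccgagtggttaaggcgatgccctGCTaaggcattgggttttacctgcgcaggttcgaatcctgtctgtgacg
TRNA-UND-NNN-1-1: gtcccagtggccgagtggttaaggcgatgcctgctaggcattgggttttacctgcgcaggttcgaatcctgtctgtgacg

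The members form 3 pairs. TRNA-SER-AGA-2-1 differs from TRNA-SER-AGA-1-1 by 1 inserted G in the variable arm. Counted from the 5′ end of the mature TRNA-SER-CGA-1-1, TRNA-SER-TGA-1-1 differs from it by G28C, C34T and C42G, of which C34T lies in the anticodon. TRNA-UND-NNN-1-1 lacks 1 C of TRNA-SER-GCT-1-1, from the run of C that starts at position 30, where the stem of the anticodon arm meets its loop. Its mature form is shorter by a further base because its annotated intron is 1 base longer.

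Reads were aligned to sequences that still hold the introns, and 3 of the 6 members have one. These unspliced sequences are shown, with the intron in capitals, because a fragment of mature tRNA that crosses the splice junction has no exact match in them.
TRNA-SER-CGA-1-1 unspliced: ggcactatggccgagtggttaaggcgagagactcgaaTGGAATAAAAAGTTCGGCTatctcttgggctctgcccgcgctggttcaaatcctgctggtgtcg
TRNA-SER-GCT-1-1 unspliced: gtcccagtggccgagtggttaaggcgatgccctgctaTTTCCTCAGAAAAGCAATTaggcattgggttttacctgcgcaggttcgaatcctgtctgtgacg
TRNA-UND-NNN-1-1 unspliced: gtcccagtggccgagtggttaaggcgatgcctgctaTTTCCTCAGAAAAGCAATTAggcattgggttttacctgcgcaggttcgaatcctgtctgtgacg

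In build R64 the set corresponds to 19 of the 275 nuclear tRNA genes, and none of the 19 overlaps another annotated gene. All are non-coding tRNA genes without untranslated regions. TRNA-SER-AGA-1-1 is the sequence of 10 identical genes on 9 chromosomes, without intron. They lie at chrI:182522-182603 (minus strand), chrII:227075-227156 (plus), chrIV:437772-437853 (plus), chrIV:980974-981055 (minus), chrV:86604-86685 (plus), chrVII:561662-561743 (minus), chrVIII:133026-133107 (minus), chrX:524012-524093 (minus), chrXII:167944-168025 (minus) and chrXIII:259158-259239 (minus). TRNA-SER-AGA-2-1 is 1 intronless gene at chrIV:1305630-1305712 on the plus strand.

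TRNA-SER-CGA-1-1 is SUP61, the only gene for this anticodon, at chrIII:227942-228042 on the plus strand, with an intron at 227979 to 227997. TRNA-SER-TGA-1-1 is shared by 3 intronless genes, SUP16 at chrXVI:689565-689646 (plus), SUP17 at chrIX:248850-248931 (plus) and SUP19 at chrV:288443-288524 (minus). The SUP genes are named for suppressor mutations of the tRNA. TRNA-SER-GCT-1-1 has 2 genes, at chrVI:191513-191613 (minus) and chrXV:274673-274773 (plus), each with an intron of 19 bases. TRNA-UND-NNN-1-1 has 2 genes of identical sequence, at chrIV:1150842-1150941 (minus) and chrXII:784354-784453 (plus). The annotation gives an intron of 20 bases for the copy on chromosome XII and none for the copy on chromosome IV. It names the product of both as tRNA-Ser and describes both as undetermined in specificity.

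Short fragments cannot always tell these sequences apart. Of the 64 windows of 19 nucleotides in TRNA-SER-AGA-1-1, 47 also occur in TRNA-SER-AGA-2-1, and of the 64 windows in TRNA-SER-TGA-1-1, 31 also occur in TRNA-SER-CGA-1-1. TRNA-SER-GCT-1-1 and TRNA-UND-NNN-1-1 share 66 of their 83 and 82 windows. Between members of different pairs only 2 windows are shared. No window of 19 nucleotides in a serine sequence occurs in any of the 64 other tRNA sequences, so reads were exchangeable within the set but, as exact matches, not with other tRNAs. In mature TRNA-SER-CGA-1-1 and TRNA-SER-GCT-1-1, 18 of 64 windows cross the splice junction and occur in no listed sequence, and in mature TRNA-UND-NNN-1-1 the number was 16 of 62. How the alignment placed reads with several equal matches is not given in the sources used here, so the separate levels of the members of a pair are uncertain.

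**Figure D1:**
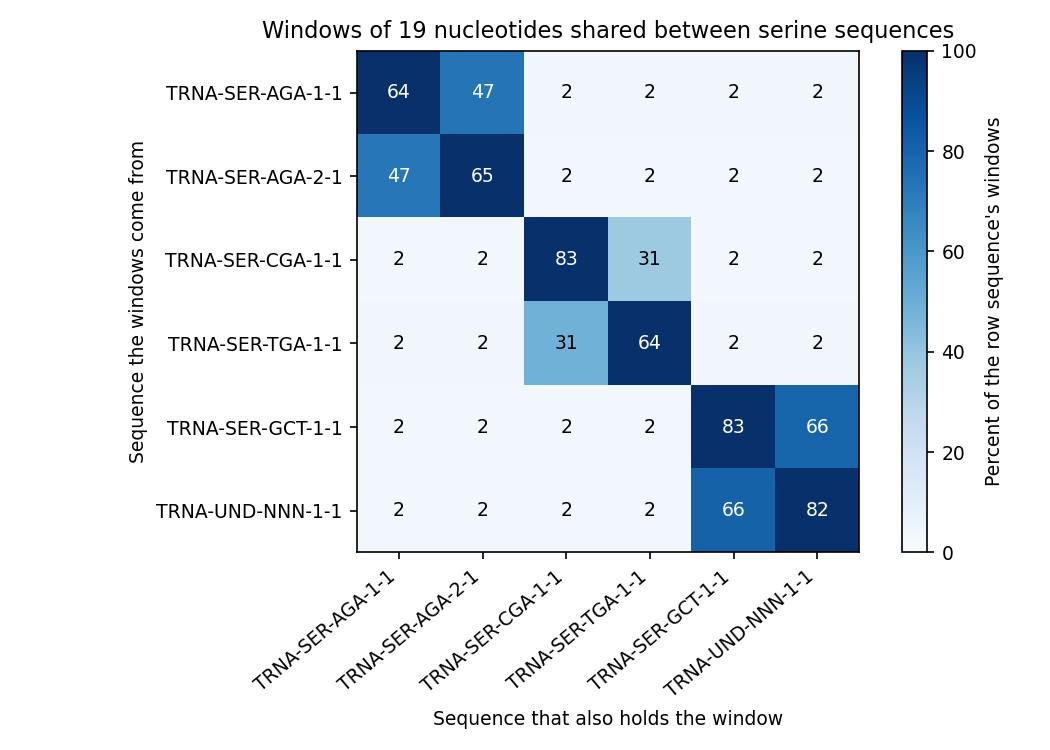
Number of 19-nucleotide windows of each serine sequence (rows) that occur in each serine sequence (columns), with the shade giving the percent of the row sequence's windows. Sharing is high within 3 pairs (47, 31 and 66 windows) and limited to 2 windows between pairs.

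The libraries held 519302 to 8259323 reads that aligned to a tRNA. Aligned reads were 87.4 to 87.9% of all reads in the paf1∆ libraries, 5.64 to 6.08% in the rtf1∆ libraries and 6.43 to 6.76% in the wild type libraries. Every reference sequence, the serine ones included, is listed as 3 nucleotides longer for the paf1∆ libraries than for the others. Deletion of PAF1 cannot be told apart from this difference in processing, or from the higher aligned share and depth, in any comparison with paf1∆ below. By the names of the deposited files, wild type replicate 1 belongs to Set 1, and the other wild type library and both rtf1∆ libraries belong to Set 2. No set is named for paf1∆, so a difference of set cannot be told apart from deletion of PAF1 either. Levels are shares of the tRNA reads of a library, and a level per cell was not measured.

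Serine tRNAs took 12.6% of the aligned reads in paf1∆ replicate 1 and 25.7% in replicate 2. In rtf1∆ cells they took 1.84% and 1.41%, and in wild type cells 2.48% and 1.51%. Both paf1∆ libraries lay far above the other 4, while the rtf1∆ and wild type libraries overlapped. The group means were 19.2% ± 9.28 in paf1∆, 1.62% ± 0.307 in rtf1∆ and 2.00% ± 0.686 in wild type cells (SD, n = 2 each). The mean share in paf1∆ cells was thus 9.61 times that in wild type cells and 11.8 times that in rtf1∆ cells. Counting error was small beside this, since the widest 95% Wilson interval of a share, that of wild type replicate 1, ran from 2.44 to 2.52%. The leucine tRNAs, the other family with a long variable arm, took 2.79% ± 0.799 of the reads in paf1∆, 2.51% ± 0.118 in rtf1∆ and 2.19% ± 0.298 in wild type cells (SD, n = 2 each).

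TRNA-SER-AGA-1-1, the tRNA for the UCU and UCC codons, was the most abundant member in all 6 libraries. It had 400984 and 1009876 reads in paf1∆ replicates 1 and 2, which were 4.85% and 12.8% of the aligned reads. In rtf1∆ cells it had 9104 and 5078 reads (1.18% and 0.864%), and in wild type cells 7231 and 12459 reads (1.39% and 0.868%). Both paf1∆ libraries were above all others, and the rtf1∆ values lay within or just below the wild type range. Its rank among the 70 sequences was 2 in both paf1∆ libraries, against 19 and 23 in rtf1∆ and 21 and 23 in wild type libraries.

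TRNA-SER-AGA-2-1, the single-gene variant with 1 base more, came next. It had 373099 and 996003 reads in paf1∆ replicates 1 and 2, or 4.52% and 12.6% of the aligned reads. In rtf1∆ cells it had 4385 and 2719 reads (0.569% and 0.462%), and in wild type cells 4889 and 6722 reads (0.941% and 0.468%). Its rank was 3 in both paf1∆ libraries, directly behind TRNA-SER-AGA-1-1. This 1 gene of 19 gave 30.9 to 48.9% of the serine reads across the 6 libraries, a share that includes any read which could equally have come from the other 10 genes.

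TRNA-SER-CGA-1-1, the tRNA for the UCG codon, was the rarest of all 70 sequences in the rtf1∆ and wild type libraries. It had 58348 and 9273 reads in paf1∆ replicates 1 and 2 (0.706% and 0.117%). In rtf1∆ cells it had 69 and 46 reads (0.00895% and 0.00782%), and in wild type cells 67 and 90 reads (0.0129% and 0.00627%). Both paf1∆ libraries were above the rest, but they differed from each other 6.02-fold. With fewer than 100 reads in each of the other 4 libraries, the interval of a single library was wide, for example 0.0102 to 0.0164% in wild type replicate 1 (95% Wilson interval, counting error only).

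TRNA-SER-TGA-1-1, the tRNA for the UCA codon, was the next rarest. It had 58880 and 9188 reads in paf1∆ replicates 1 and 2 (0.713% and 0.116%). In rtf1∆ cells it had 185 and 71 reads (0.0240% and 0.0121%), and in wild type cells 168 and 160 reads (0.0324% and 0.0111%). The paf1∆ values were again above all others, and the rtf1∆ and wild type values interleaved. Its rank among the 70 sequences was 30 and 51 in the paf1∆ libraries and 69 in each of the other 4.

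TRNA-SER-GCT-1-1, the tRNA for the AGC and AGU codons, had 2 paf1∆ libraries that lay far apart. It had 75461 and 5718 reads in paf1∆ replicates 1 and 2, or 0.914% and 0.0723% of the aligned reads. In rtf1∆ cells it had 209 and 184 reads (0.0271% and 0.0313%), and in wild type cells 251 and 1119 reads (0.0483% and 0.0779%). Here paf1∆ replicate 2 lay within the wild type range, so the paf1∆ and wild type libraries overlapped, whereas both rtf1∆ libraries were below both wild type libraries.

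TRNA-UND-NNN-1-1 had 75558 and 5658 reads in paf1∆ replicates 1 and 2 (0.915% and 0.0716%). In rtf1∆ cells it had 245 and 174 reads (0.0318% and 0.0296%), and in wild type cells 281 and 1151 reads (0.0541% and 0.0802%). As for TRNA-SER-GCT-1-1, paf1∆ replicate 2 lay within the wild type range and the rtf1∆ libraries below it.

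**Figure D2:**
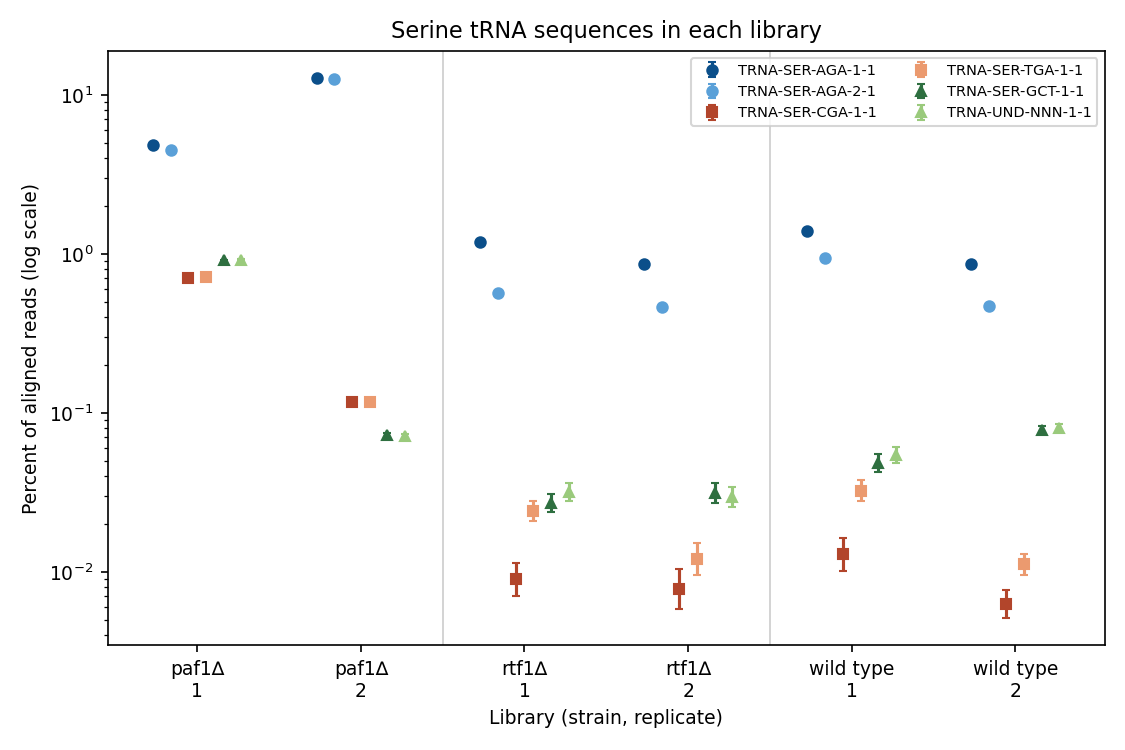
Percent of aligned reads (log scale) of each serine sequence in each library, with 95% Wilson intervals that cover counting error only. The AGA sequences lie at 4.52 to 12.8% in the paf1∆ libraries and at most 1.39% in the others, while the GCT and undetermined sequences of paf1∆ replicate 2 lie at the wild type level.

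The 2 paf1∆ libraries did not move together across the set. From one replicate to the other, the AGA sequences differed 2.63-fold and 2.79-fold, being higher in replicate 2. The other 4 members were higher in replicate 1, by 6.02-fold for TRNA-SER-CGA-1-1, 6.13-fold for TRNA-SER-TGA-1-1, 12.6-fold for TRNA-SER-GCT-1-1 and 12.8-fold for TRNA-UND-NNN-1-1. None of the 64 other tRNA sequences differed between the paf1∆ replicates by as much as any of these 4. In the rtf1∆ pair the largest gap among the members was 1.99-fold and in the wild type pair 2.90-fold, both for TRNA-SER-TGA-1-1. The paf1∆ group means therefore average libraries of different make-up.

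Within the serine reads, the AGA sequences together gave most of the reads in every library. TRNA-SER-AGA-1-1 gave 44.0% ± 7.88 of the serine reads in paf1∆, 62.8% ± 1.94 in rtf1∆ and 56.8% ± 0.920 in wild type cells (SD, n = 2 each). TRNA-SER-AGA-2-1 gave 42.4% ± 9.29 in paf1∆, 31.9% ± 1.40 in rtf1∆ and 34.5% ± 4.92 in wild type cells (SD, n = 2 each). Division by the mature length moved these mean shares by at most 0.324 percentage points, because the members are 80 to 83 bases long. Against gene number, TRNA-SER-AGA-1-1 with 52.6% of the genes of the set gave 38.5 to 64.1% of the reads. TRNA-SER-TGA-1-1, with 15.8% of the genes, gave 0.451 to 5.65%.

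The other 4 members differed strongly between the paf1∆ replicates. In replicate 1 TRNA-SER-CGA-1-1, TRNA-SER-TGA-1-1, TRNA-SER-GCT-1-1 and TRNA-UND-NNN-1-1 gave 5.60%, 5.65%, 7.24% and 7.25% of the serine reads. In replicate 2 each of them gave less than 0.5%, namely 0.456%, 0.451%, 0.281% and 0.278%. The order of the members thus changed as well. In the rtf1∆ and wild type libraries the GCT and undetermined sequences stood above TGA, and TGA above CGA. In paf1∆ replicate 2 the CGA and TGA sequences stood above the GCT and undetermined ones.

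**Figure D3:**
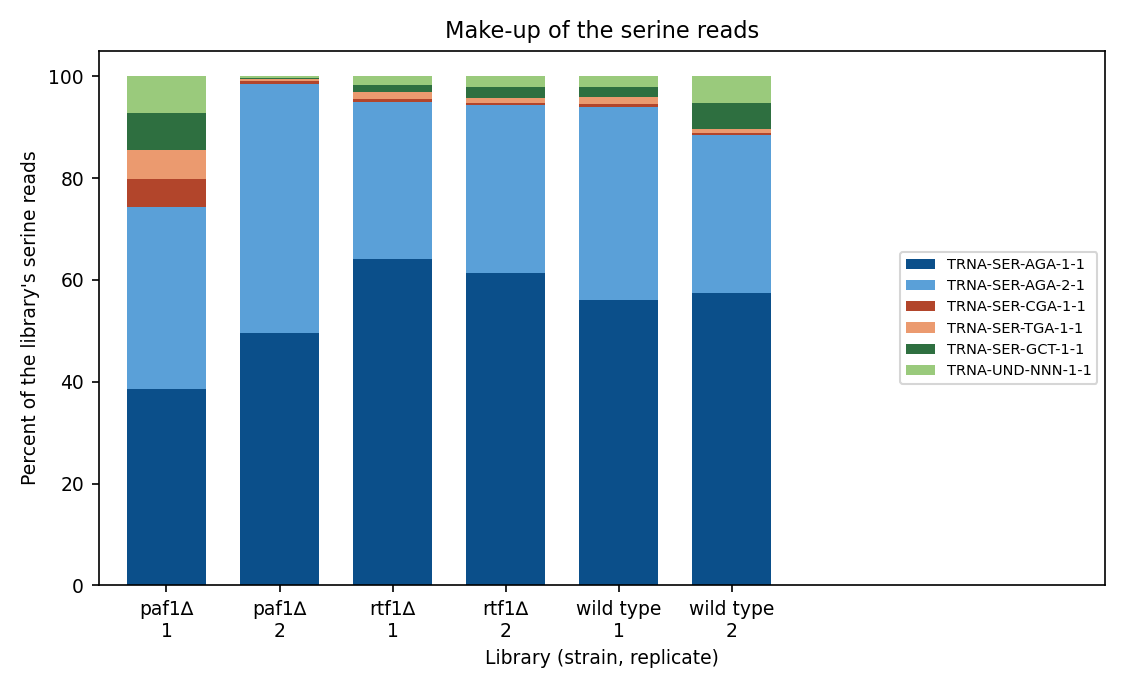
Make-up of the serine reads of each library, each bar adding to 100%. The AGA sequences fill most of every bar, and the other 4 sequences give a visible part in paf1∆ replicate 1 (5.60 to 7.25% each) and almost none in paf1∆ replicate 2 (0.278 to 0.456% each).

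The ratio of reads within a pair does not depend on the scaling of libraries. For TRNA-SER-AGA-1-1 to TRNA-SER-AGA-2-1 it was 1.07 and 1.01 in paf1∆ replicates 1 and 2, against 2.08 and 1.87 in rtf1∆ and 1.48 and 1.85 in wild type libraries. For TRNA-SER-CGA-1-1 to TRNA-SER-TGA-1-1 it was 0.991 and 1.01 in the paf1∆ libraries, against 0.373 and 0.648 in rtf1∆ and 0.399 and 0.562 in wild type libraries. Both ratios were thus near 1 in both paf1∆ libraries and away from 1 in the other 4, with no overlap between paf1∆ and either other genotype. How many non-serine pairs do the same was not counted, and their median, given below, was nearer a ratio of 1 in paf1∆ too. The pattern is therefore not shown to be particular to serine sequences. With 2 libraries against 2 an exact permutation test cannot go below p = 0.333, so these ratios are given without a test.

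The depth behind the ratios bears on their order. For the CGA to TGA ratio the 95% Wilson intervals held 1 in both paf1∆ libraries (0.980 to 1.00 and 0.981 to 1.04), and reached no higher than 0.937 in the other 4. The AGA ratio was above 1 beyond counting error in all 6 libraries, by a margin that was small in paf1∆ replicate 2 (1.01 to 1.02). For TRNA-SER-GCT-1-1 to TRNA-UND-NNN-1-1 the interval held 1 in each of the 6 libraries, so their order was not detectable. TRNA-UND-NNN-1-1 was included for counts like those of TRNA-SER-GCT-1-1, so a ratio near 1 was a condition of the choice and not a result. The 26 pairs of non-serine sequences set beside them each join the first sequence of an anticodon to a further one of it. They come from 14 anticodons, so pairs share sequences, and unlike CGA and TGA the 2 sequences have the same anticodon. Their median absolute log2 ratio was 0.02 and 0.03 in the paf1∆ libraries, 0.08 and 0.09 in rtf1∆ and 0.17 and 0.07 in wild type libraries. The spread was wide. A value of 0.1 was exceeded by 11 pairs in each paf1∆ library, 12 and 13 in rtf1∆ and 17 and 12 in wild type libraries. The largest value of a library was 3.42 to 4.94.

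**Figure D4:**
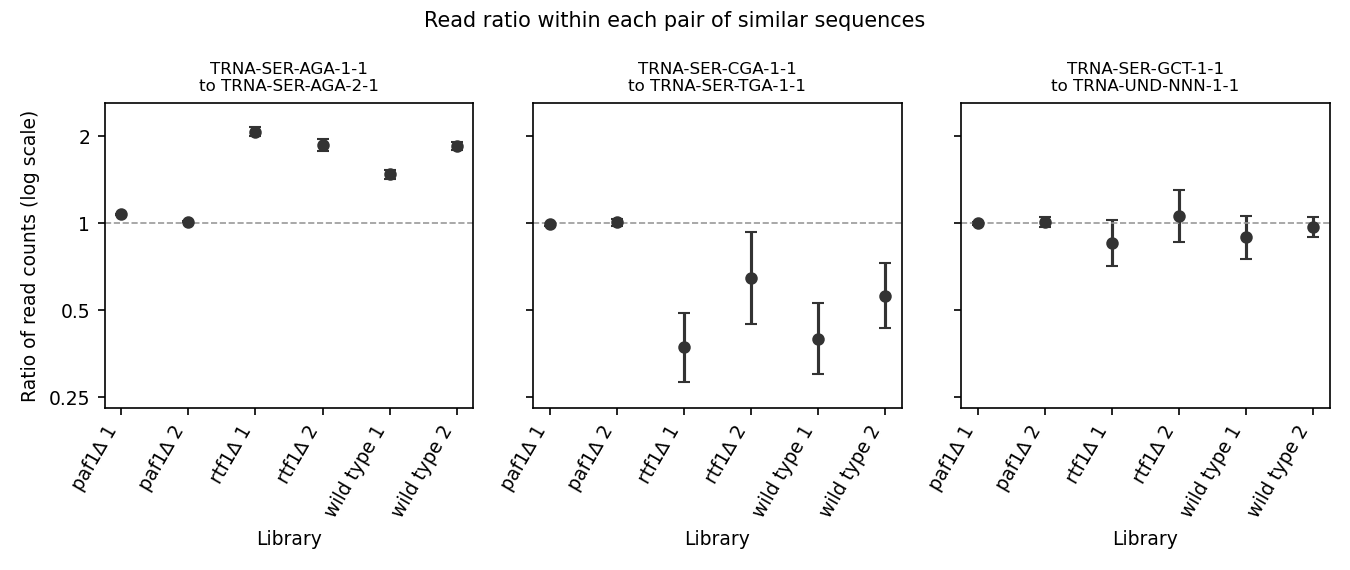
Ratio of read counts within each pair of similar serine sequences in each library (log scale), with 95% Wilson-based intervals for counting error, and a dashed line at 1. The AGA and the CGA to TGA ratios sit at 0.991 to 1.07 in the paf1∆ libraries and away from 1 in the rtf1∆ and wild type libraries. The GCT to undetermined ratio lies near 1 in all, which was a condition of including the undetermined sequence.

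Against wild type, 4 of the 6 serine sequences rose in paf1∆ cells, all 4 of them readers of UCN codons. The test was edgeR's quasi-likelihood test on TMM-scaled counts, fitted over all 70 sequences with Benjamini-Hochberg adjustment over all of them. Over all 70 sequences, 8.57% (6 sequences) were called higher by this test, so the serine set gave 4 of the 6. TRNA-SER-CGA-1-1 had the highest log2 fold change of all sequences, 5.27 (standard error 0.72, edgeR adjusted p = 0.0113). TRNA-SER-TGA-1-1 followed with 4.13 (standard error 0.74, edgeR adjusted p = 0.0113) and TRNA-SER-AGA-2-1 with 3.93 (standard error 0.90, edgeR adjusted p = 0.0322). TRNA-SER-AGA-1-1 had 3.25 (standard error 0.85), with an edgeR adjusted p of 0.0496 that lies just inside the threshold of 0.05.

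The AGY reader and the sequence of undetermined specificity did not pass. The log2 fold change was 2.59 for TRNA-SER-GCT-1-1 (standard error 0.93, edgeR adjusted p = 0.101) and 2.52 for TRNA-UND-NNN-1-1 (standard error 0.91, edgeR adjusted p = 0.104). Their 95% intervals, 0.39 to 4.80 and 0.33 to 4.70, contain the values of 3 of the 4 UCN readers and lie below that of TRNA-SER-CGA-1-1, and the difference between UCN and AGY readers was not tested. The median log2 fold change was 4.03 for the 4 UCN readers, 3.59 for the set of 6, 0.12 for the 9 leucine sequences and -0.01 for all 70. By the raw shares, 4 of the 6 members had both paf1∆ libraries above both wild type libraries, against 24.3% of all 70 sequences.

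Single libraries carried much of this. Without paf1∆ replicate 1 the log2 fold change was 0.63 for TRNA-SER-GCT-1-1 and 0.54 for TRNA-UND-NNN-1-1, and without paf1∆ replicate 2 it was 3.41 and 3.33. Without paf1∆ replicate 2 it was 1.77 for TRNA-SER-AGA-1-1 and 2.37 for TRNA-SER-AGA-2-1, and without replicate 1 it was 4.05 and 4.74. TRNA-SER-CGA-1-1 had 4.21 without paf1∆ replicate 1 and 5.91 without replicate 2, and TRNA-SER-TGA-1-1 had 3.05 and 4.78. Without wild type replicate 2 the log2 fold changes of the members were still 3.14 to 5.02. The calls were not stable in these fits, and TRNA-SER-AGA-1-1 lost its call in some of them. Their p-values and counts are not given. With 3 libraries left, the lone library of a genotype is assumed to vary like the other group.

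The same 4 members rose in paf1∆ against rtf1∆ cells by edgeR's quasi-likelihood test. This comparison shares the paf1∆ libraries with the previous one and is not a second line of evidence. TRNA-SER-CGA-1-1 had a log2 fold change of 5.32 (edgeR adjusted p = 0.0167), TRNA-SER-TGA-1-1 of 4.24 and TRNA-SER-AGA-2-1 of 4.15 (edgeR adjusted p = 0.0255 for each), and TRNA-SER-AGA-1-1 of 3.20 (edgeR adjusted p = 0.0451). The log2 fold changes of 3.72 for TRNA-SER-GCT-1-1 and 3.66 for TRNA-UND-NNN-1-1 did not pass, with edgeR adjusted p of 0.0651 and 0.0653. Over all 70 sequences 14.3% were called higher. All 6 members had both paf1∆ libraries above both rtf1∆ libraries, which held for 31.4% of all sequences. Without paf1∆ replicate 1 the log2 fold changes of TRNA-SER-GCT-1-1 and TRNA-UND-NNN-1-1 were 1.57 and 1.48, and without replicate 2 that of TRNA-SER-AGA-1-1 was 1.85. Without rtf1∆ replicate 2 the log2 fold change of TRNA-SER-AGA-1-1 was 3.05, and its call was lost.

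**Figure D5:**
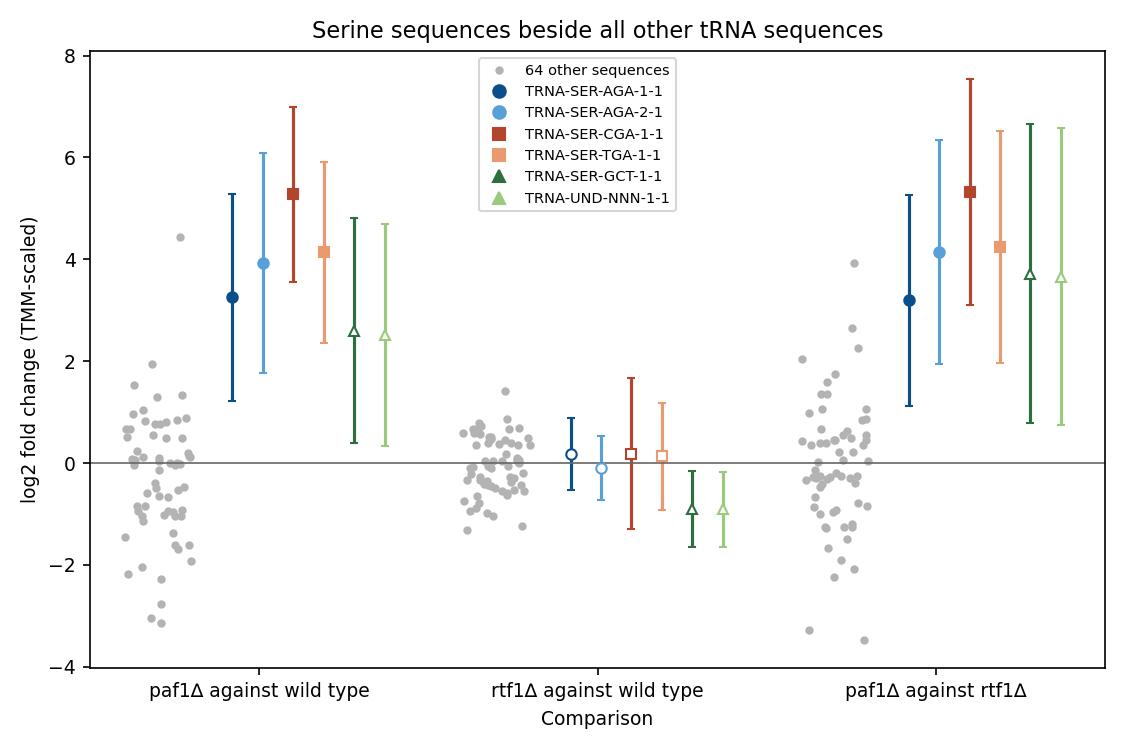
Log2 fold changes of the serine sequences, with 95% intervals from edgeR's quasi-likelihood fit, beside the 64 other tRNA sequences (grey, without intervals) in 3 comparisons; filled symbols have an adjusted p under 0.05. In both comparisons with paf1∆ the members lie at 2.52 to 5.32, and in rtf1∆ against wild type at -0.91 to 0.18.

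In rtf1∆ against wild type cells no serine sequence passed edgeR's quasi-likelihood test, nor DESeq2 or limma-voom, and 2 of the 6 had an unadjusted p under 0.05, against 25.7% (18) of all 70 sequences. After adjustment, of all 70 sequences 0% were called higher and 5.71% lower. The UCN readers had log2 fold changes of 0.18 for TRNA-SER-AGA-1-1, -0.10 for TRNA-SER-AGA-2-1, 0.18 for TRNA-SER-CGA-1-1 and 0.13 for TRNA-SER-TGA-1-1. Their 95% intervals were -0.53 to 0.88, -0.73 to 0.53, -1.30 to 1.67 and -0.91 to 1.18. With TMM scaling these intervals bound a change of the AGA sequences to less than 1 on the log2 scale. They leave the 2 rare sequences poorly bounded. With scaling by total counts instead of TMM the log2 fold change was -0.14 for TRNA-SER-AGA-1-1, -0.16 for TRNA-SER-CGA-1-1 and -0.25 for TRNA-SER-TGA-1-1, so their direction depended on the scaling. TRNA-SER-AGA-2-1 was at -0.45 under total counts, and whether the bound holds under that scaling was not tested.

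The members with unadjusted p under 0.05 were TRNA-SER-GCT-1-1, at -0.90 (standard error 0.38), and TRNA-UND-NNN-1-1, at -0.91 (standard error 0.37). By edgeR the adjusted p was 0.136 for each. Both had the rtf1∆ libraries below both wild type libraries, which was also the case for 42.9% of all 70 sequences. Wild type replicate 2 decided the size. Without it the log2 fold changes were -0.19 and -0.28. Within Set 2, that is without wild type replicate 1, they were -1.35 and -1.33. That fit has 1 wild type library and takes its spread from the rtf1∆ pair. Over the 64 other sequences the median absolute log2 difference between replicates was 0.16 in rtf1∆ and 0.70 in wild type, so no p-value is given. In the same fit TRNA-SER-TGA-1-1 was higher in rtf1∆ than in wild type cells, at 0.76, but without wild type replicate 2 it was at -0.29. Set 1 holds 1 wild type library only and gives no value of its own.

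Over the 6 libraries, the sequence whose level was most like the summed serine level was TRNA-ARG-TCT-1-1, a tRNA for arginine, with a Pearson r of 0.97 on log2 CPM. TRNA-GLU-TTC-1-1 (0.92) and TRNA-LEU-TAG-1-2 (0.90) came next, for glutamate and leucine. The 6 points share genotype, alignment reference and, in the paf1∆ pair, depth, so these values are descriptions. TRNA-ARG-TCT-1-1 took 19.4% and 20.7% of the aligned reads in the paf1∆ libraries, against 1.55% and 1.03% in rtf1∆ and 1.18% and 0.842% in wild type libraries. In paf1∆ against wild type cells its log2 fold change of 4.43 (standard error 0.77, edgeR adjusted p = 0.0113) stood between those of TRNA-SER-CGA-1-1 and TRNA-SER-TGA-1-1, and serine sequences held the other places among the 7 highest of all 70.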

How the data were processed

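Per the labels and the study's methods, the authors clipped adapters and trimmed reads, aligned them to unique tRNA sequences (Bowtie and SAMtools in the submitters' processing notes, versions and settings not given in the sources used here) and deposited read counts per sequence, not normalized, with sequence lengths. Groups follow the sample labels, whose rtf1∆ replicate numbers are crossed with those of the file names. Counts were tested per comparison with edgeR 4.0.16 in R 4.3.3 (TMM, quasi-likelihood, two-sided, Benjamini-Hochberg at 0.05) after a filter that kept sequences reaching 10 counts in 2 or more of the 4 libraries, which all 70 did. A standard error is the log2 fold change over the square root of F. DESeq2 1.42.0, limma-voom (limma 3.58.1), other scalings and filters, sums over anticodons or pairs, a replicate block and each library left out were alternatives. The fit was also run on simulated counts in which random sequences were changed in either direction. Those changes were smaller than those of the serine sequences in paf1∆, and the outcome is not used here. Named sequences were all members plus the 3 others most like the summed serine level by Pearson r of log2 CPM (TMM over 6 libraries, prior count 2). The members and lists were chosen with earlier results of these data known. All 6 members were matched to RefSeq R64 genes by anticodon, or undetermined specificity, and by the length listed for the rtf1∆ and wild type libraries. The bases of the alignment reference were not available for comparison. Percentages of a library carry 95% Wilson intervals, which cover counting error only, and the level of 3 counts was 0.000578% in the shallowest library.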

Additional observations from a re-analysis of the deposited data

How the results depend on the processing

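In both comparisons with paf1∆ every member had a positive log2 fold change under every alternative that gave it a value. The count of 4 serine sequences called against wild type was 6 under RLE, total-count, upper-quartile and serine-free TMM scaling. Of all 70 sequences, 9, 8, 9 and 9 were called higher under these scalings, in that order. The serine count was 2 of 5 under a filter of 100 counts in every library. It was 3 of 3 with counts summed over each pair, an alternative chosen after the data were seen. It was not stable when single libraries were left out. Against rtf1∆ the serine count was also 6 under those scalings, with 16, 16, 14 and 16 of all 70 sequences called higher. It was 1 of 4 under that filter and 1 of 3 with counts summed over each pair. The count against rtf1∆ rose when single libraries were left out, although TRNA-SER-AGA-1-1 lost its call without rtf1∆ replicate 2. Those fits have 1 library in a genotype, so their counts are not given. Totals over all sequences are not given for the filter, the pair sums or the replicate block below. The serine counts there cannot be set against a share of all sequences. In rtf1∆ against wild type, the scalings named above called 0, 1, 0 and 0 of all 70 sequences higher, in that order. They called 4, 0, 0 and 4 lower. The serine count in rtf1∆ against wild type was 0 under all alternatives that kept every library. It was above 0 only without wild type replicate 1, a fit with 1 wild type library. TRNA-SER-AGA-2-1 had a positive log2 fold change there when summed by anticodon (0.055) or by pair (0.079), and AGA-1, CGA and TGA a negative one with total counts (-0.14, -0.16 and -0.25). With single libraries left out, the log2 fold changes there ran from -0.33 to 0.19 for TRNA-SER-AGA-2-1, -0.078 to 0.48 for TRNA-SER-CGA-1-1 and -0.34 to 0.76 for TRNA-SER-TGA-1-1. The log2 ratio of mean serine shares was 2.66 to 3.69 for paf1∆ over wild type, 2.96 to 3.99 for paf1∆ over rtf1∆ and -0.61 to 0.10 for rtf1∆ over wild type, again with single libraries left out. Other scalings moved the median log2 fold change of all 70 sequences by up to 0.31. With the replicate number as a replicate block, 6 serine sequences were called in each comparison with paf1∆ and 0 in rtf1∆ against wild type. Same-numbered libraries deviated together with correlations of 0.10, 0.25 and 0.01. Each correlation rests on 1 difference between replicates per genotype, and the rtf1∆ numbers are crossed between labels and file names. Whether the numbers pair the samples therefore cannot be decided from them. TRNA-SER-CGA-1-1 has no value under the strict filter in any comparison, nor TRNA-SER-TGA-1-1 in those with rtf1∆.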
